A study of Mus musculus with 8 samples.

Results

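The genes described here are 49 genes of mitosis and the spindle, measured in mouse spleen and chosen by name with earlier results of these data known. A gene entered with the array rows that the probe annotation assigns to it alone, and the row with the highest mean was used where there were several. Of the 49, 48 had such a row, among 19938 genes with one. Ccnb1 was not analysed here. Only Top2a had 2 rows.

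The samples were splenocytes, the mixed cells of a spleen digested with collagenase and DNase I, from 8 mice labelled C57/B6, with 1 Affymetrix Mouse Gene 1.0 ST array a mouse. There were 3 Sle1.3/E2-2het mice (labelled male, male and female in replicates 1, 2 and 3), which carry the Sle1.3 lupus background and are haplodeficient for E2-2, 3 Sle1.3 mice (labelled female, female and male) and 2 wild-type (WT) mice (both labelled male). E2-2, the product of Tcf4, is the transcription factor on which plasmacytoid dendritic cells depend, and the series describes those cells as non-functional in Sle1.3/E2-2het mice. The labels give no age, and no label says that E2-2 was lost in one cell type only. Gene values are log2 of the deposited intensity.

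Mitosis is the short phase in which copied chromosomes are condensed, attached to the spindle, pulled apart and enclosed in separate daughter cells. Cyclin A and B kinases drive entry, Aurora and Polo-like kinases build the spindle, the spindle checkpoint holds anaphase until every kinetochore is attached, and the anaphase-promoting complex then marks cyclins for destruction. Most of these genes are transcribed in late S, G2 and M phase and are silent in resting cells. In a spleen the dividing cells include germinal centre B cells, plasmablasts, activated T cells and, where blood is formed outside the marrow, red cell and granulocyte precursors. In RNA from mixed cells, fewer dividing cells and less RNA per dividing cell cannot be told apart.

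Both arrays labelled replicate 3 in the Sle1.3 groups had lowest intensities of 11.2 (Sle1.3/E2-2het) and 10.9 (Sle1.3), against 4.57 to 5.11 in the other 6 arrays, and median log2 intensities of 6.17, against 5.83 to 5.95. Both replicate 3 arrays are called the second array set, which held no WT mouse, and the array set was a term of the fit. Xist, transcribed in females, was 3.79, 4.29 and 11.82 in Sle1.3/E2-2het mice, 10.77, 10.68 and 11.90 in Sle1.3 mice and 4.11 and 3.75 in WT mice, so the array of Sle1.3 replicate 3 did not match its label, and sex and genotype cannot be told apart in Sle1.3 against WT. Tcf4 itself was 8.18, 8.13 and 9.25 in Sle1.3/E2-2het mice, 8.67, 8.63 and 9.06 in Sle1.3 mice and 9.02 and 8.80 in WT mice. The array labelled Sle1.3/E2-2het replicate 3 thus had the highest Tcf4 of the 8 arrays, above Sle1.3 replicate 3 of the same array set, which goes against its label, while replicates 1 and 2 had the lowest. The summed level of a marker list is here the log2 of the sum of its genes' linear intensities. Over the 8 arrays it was 13.50 to 14.22 for follicular B cells and 11.82 to 12.54 for T cells.

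Sle1.3 spleens had more transcript of nearly the whole mitotic set than WT spleens, and Sle1.3/E2-2het spleens lay between both. Of the 48 genes, 39 rose and 1 fell in Sle1.3 against WT by limma with adjusted p under 0.05 over 14953 genes tested, where 7.46% of genes rose and 16.5% fell. The median difference of the 48 was 0.86, against -0.06 over all genes tested. In Sle1.3/E2-2het against Sle1.3, 6 fell and none rose, where 0.461% of genes fell and 0.154% rose, and the median was -0.41, against 0.00 over all genes. In Sle1.3/E2-2het against WT, 18 rose and 1 fell, where 10.7% and 23.4% of genes did, with a median of 0.40, against -0.09. These comparisons share mice. The calls depended on the covariate. With labelled sex in the fit in place of the array set, 12 were higher in Sle1.3 against WT (0.528% of genes) and 3 higher in Sle1.3/E2-2het against WT (1.71% of genes). In Sle1.3/E2-2het against Sle1.3, 0 were lower (0.0% of genes). There 21 of the 48 were lower with p under 0.05 before adjustment in limma, against 230 of all 14953 genes tested.

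**Figure D1:**
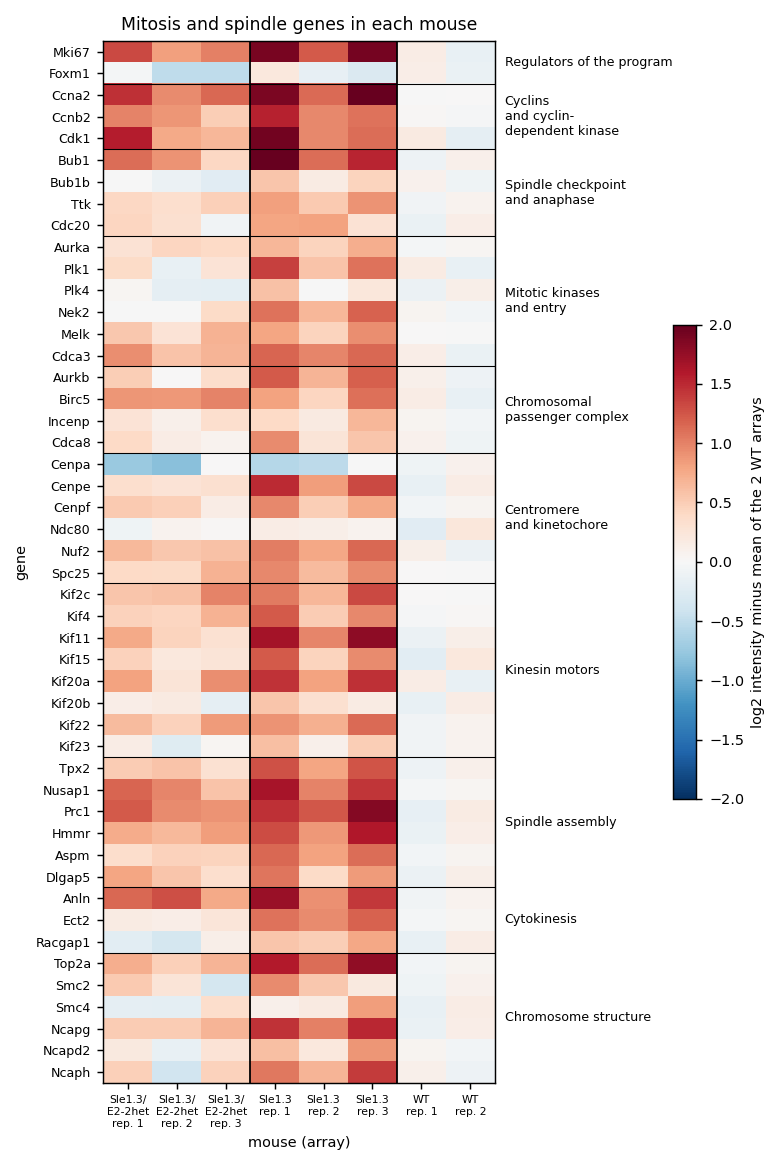
Each row is 1 of the 48 genes, ordered by role, and each column is 1 mouse. The colour gives its log2 intensity minus the mean of both WT arrays, with no correction for array set. The Sle1.3 columns are the reddest, the Sle1.3/E2-2het columns are paler, and Cenpa is blue in replicates 1 and 2 of both Sle1.3 genotypes.

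Many mitotic promoters share a short element, the cell cycle homology region TTTGAA, which the DREAM complex binds in resting cells and B-Myb with FoxM1 binds in dividing cells, often near CCAAT boxes, which NF-Y binds. RefSeq promoter windows (build GRCm38.p6, 250 bases before to 50 after a start) were at hand for 40 of the 48 genes. TTTGAA stood on either strand of a window in 31 of these 40 genes (77.5%), against 15.2% of 11810 tested genes with a window and 20.2% of 27025 genes in all. CCAAT on either strand stood in 29 of 40 (72.5%), against 41.5% of tested genes, and 26 of 40 (65.0%) had both in 1 window, against 6.11%. The E2F motif TTTCCCGC, searched the same way, was in 1 of 40 windowed genes (2.5%), against 2.06% of tested genes. These are matches of letters, not measured sites. Of the windows with TTTGAA, those of Top2a, Ect2, Prc1 and Ncapg belong to the genes with the smallest p in Sle1.3 against WT. They are shown 5′ to 3′ in the direction of the gene, with TTTGAA and also CCAAT in capitals, each on either strand.
Top2a, chr11:99024140-99024439, minus strand: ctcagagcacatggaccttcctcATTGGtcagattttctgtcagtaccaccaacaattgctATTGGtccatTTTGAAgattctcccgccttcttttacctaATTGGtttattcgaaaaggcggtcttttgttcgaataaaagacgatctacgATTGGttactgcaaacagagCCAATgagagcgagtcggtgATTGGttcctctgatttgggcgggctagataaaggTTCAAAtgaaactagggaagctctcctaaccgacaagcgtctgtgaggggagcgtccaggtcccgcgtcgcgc
Ect2, chr3:27153805-27154104, minus strand: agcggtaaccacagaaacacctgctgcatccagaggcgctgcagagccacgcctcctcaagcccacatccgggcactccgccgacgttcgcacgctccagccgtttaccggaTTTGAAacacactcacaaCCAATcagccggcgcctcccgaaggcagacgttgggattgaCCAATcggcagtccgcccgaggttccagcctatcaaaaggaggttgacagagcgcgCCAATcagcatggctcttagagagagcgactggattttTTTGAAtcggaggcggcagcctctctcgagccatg
Prc1, chr7:80294201-80294500, plus strand: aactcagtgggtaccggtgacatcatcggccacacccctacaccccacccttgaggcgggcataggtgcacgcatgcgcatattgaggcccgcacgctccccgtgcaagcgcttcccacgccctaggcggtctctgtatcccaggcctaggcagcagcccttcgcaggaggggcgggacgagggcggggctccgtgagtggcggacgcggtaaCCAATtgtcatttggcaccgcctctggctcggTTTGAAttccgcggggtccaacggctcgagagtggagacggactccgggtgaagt
Ncapg, chr5:45669675-45669974, plus strand: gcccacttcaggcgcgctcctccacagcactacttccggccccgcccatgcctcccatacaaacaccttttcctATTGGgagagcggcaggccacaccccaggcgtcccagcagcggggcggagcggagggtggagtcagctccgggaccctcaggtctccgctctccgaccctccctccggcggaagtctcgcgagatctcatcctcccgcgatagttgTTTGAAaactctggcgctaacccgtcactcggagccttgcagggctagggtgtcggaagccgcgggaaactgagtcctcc
In the Top2a window 6 CCAAT boxes stood upstream of the start, the nearest 58 bases before it, and a TTTGAA began 23 bases before the start. Ect2 had 3 CCAAT boxes and a TTTGAA on each side of the start, and Prc1 had 1 of each, 37 and 5 bases before the start.

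Mki67, whose protein coats mitotic chromosomes and marks cycling cells, was 9.59, 9.09 and 9.28 in Sle1.3/E2-2het mice, 10.17, 9.49 and 10.18 in Sle1.3 mice and 8.42 and 8.12 in WT mice. Every mouse of both Sle1.3 genotypes lay above both WT mice, and Sle1.3 exceeded WT by 1.63 (SE 0.23, 3.10-fold, limma adjusted p = 0.00115). Foxm1 encodes the factor that switches on many of the other genes. Its values were 6.33, 5.85 and 5.85 in Sle1.3/E2-2het mice, 6.58, 6.21 and 6.08 in Sle1.3 mice and 6.50 and 6.22 in WT mice, with overlapping groups and a Sle1.3 minus WT difference of 0.02 (SE 0.18, adjusted p = 0.952).

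The cyclins and their kinase were among the genes farthest above WT in both Sle1.3 genotypes, and all 3 measured members rose in each. Ccna2, cyclin A2, was 9.02, 8.51 and 8.71 in Sle1.3/E2-2het mice, 9.44, 8.69 and 9.54 in Sle1.3 mice and 7.55 and 7.56 in WT mice. Sle1.3 exceeded WT by 1.60 (SE 0.24, adjusted p = 0.00138) and Sle1.3/E2-2het exceeded WT by 1.12 (SE 0.24, adjusted p = 0.00582). Cdk1, the catalytic partner of cyclins A and B, was 8.96, 8.15 and 8.05 in Sle1.3/E2-2het mice, 9.32, 8.35 and 8.50 in Sle1.3 mice and 7.56 and 7.21 in WT mice (Sle1.3 minus WT 1.48, SE 0.29). Replicate 1 was the highest mouse for Cdk1 in each of these groups. Ccnb2, cyclin B2, was 9.26, 9.14 and 8.75 in Sle1.3/E2-2het mice, 9.80, 9.21 and 9.35 in Sle1.3 mice and 8.28 and 8.24 in WT mice (Sle1.3 minus WT 1.29, SE 0.18).

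Among the spindle checkpoint and anaphase genes 3 of 4 rose in Sle1.3 against WT. Bub1, a checkpoint kinase at the kinetochore, was 7.10, 6.90 and 6.40 in Sle1.3/E2-2het mice, 7.98, 7.11 and 7.52 in Sle1.3 mice and 5.90 and 6.09 in WT mice. Its Sle1.3 minus WT difference of 1.65 (SE 0.24, 3.14-fold, adjusted p = 0.00128) was the highest of the 48 genes, and the 3 groups did not overlap. Cdc20, which activates the anaphase-promoting complex, was 7.05, 6.94 and 6.56 in Sle1.3/E2-2het mice, 7.41, 7.43 and 6.91 in Sle1.3 mice and 6.48 and 6.76 in WT mice (Sle1.3 minus WT 0.79, SE 0.14, adjusted p = 0.00331). Bub1b, the checkpoint protein BubR1, was 5.98, 5.87 and 5.77 in Sle1.3/E2-2het mice, 6.54, 6.15 and 6.43 in Sle1.3 mice and 6.07 and 5.91 in WT mice (Sle1.3 minus WT 0.40, SE 0.16, adjusted p = 0.0871). It was higher in every Sle1.3 mouse than in any other, without passing the test. Ttk, the checkpoint kinase Mps1, rose by 0.70 in Sle1.3 against WT (SE 0.15).

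Of the 6 genes of mitotic kinases and mitotic entry, 5 rose in Sle1.3 against WT. Cdca3, a trigger of mitotic entry, was 7.54, 7.18 and 7.28 in Sle1.3/E2-2het mice, 7.77, 7.58 and 7.77 in Sle1.3 mice and 6.75 and 6.47 in WT mice (Sle1.3 minus WT 1.09, SE 0.16, adjusted p = 0.00139). Plk1, the Polo-like kinase of spindle assembly and cytokinesis, was 6.58, 6.05 and 6.47 in Sle1.3/E2-2het mice, 7.57, 6.78 and 7.29 in Sle1.3 mice and 6.36 and 6.04 in WT mice (Sle1.3 minus WT 0.97, SE 0.24, adjusted p = 0.0131). Here the Sle1.3/E2-2het mice overlapped the WT mice. The same overlap was seen for Nek2, a kinase of centrosome separation, at 5.81, 5.80 and 6.20 in Sle1.3/E2-2het mice, 6.91, 6.48 and 6.99 in Sle1.3 mice and 5.88 and 5.75 in WT mice (Sle1.3 minus WT 0.86, SE 0.16, adjusted p = 0.0034). Plk4, the kinase of centriole duplication, was 7.28, 7.06 and 7.05 in Sle1.3/E2-2het mice, 7.84, 7.24 and 7.47 in Sle1.3 mice and 7.13 and 7.36 in WT mice and did not pass (0.30, SE 0.19, adjusted p = 0.253). Aurka, the Aurora kinase of spindle poles, and Melk, a kinase of proliferating cells, rose by 0.57 (SE 0.14) and 0.62 (SE 0.15).

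The chromosomal passenger complex, which corrects wrong attachments and later marks the site of cleavage, had 3 of 4 genes higher in Sle1.3 than in WT. Its kinase Aurkb was 7.57, 7.08 and 7.44 in Sle1.3/E2-2het mice, 8.30, 7.75 and 8.28 in Sle1.3 mice and 7.18 and 6.98 in WT mice (Sle1.3 minus WT 0.97, SE 0.20, adjusted p = 0.00595). Birc5, survivin, was 6.38, 6.37 and 6.49 in Sle1.3/E2-2het mice, 6.30, 5.93 and 6.60 in Sle1.3 mice and 5.65 and 5.35 in WT mice. Both Sle1.3 genotypes exceeded WT, by 0.81 in Sle1.3/E2-2het (SE 0.17, adjusted p = 0.00567) and 0.68 in Sle1.3 (SE 0.17, adjusted p = 0.0152). Birc5 was the 1 of 48 genes with a positive Sle1.3/E2-2het minus Sle1.3 difference (0.13, SE 0.15, adjusted p = 0.808). The scaffold gene Incenp was 6.23, 6.06 and 6.29 in Sle1.3/E2-2het mice, 6.36, 6.13 and 6.62 in Sle1.3 mice and 6.01 and 5.91 in WT mice, a Sle1.3 minus WT difference of 0.33 that did not pass (adjusted p = 0.121). Cdca8, borealin, rose by 0.63 (SE 0.20).

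Centromere and kinetochore genes were mixed, with 4 of 6 higher and 1 lower in Sle1.3 than in WT. Cenpe, the kinesin that carries chromosomes to the spindle equator, was 5.81, 5.75 and 5.80 in Sle1.3/E2-2het mice, 6.96, 6.31 and 6.79 in Sle1.3 mice and 5.33 and 5.62 in WT mice (Sle1.3 minus WT 1.19, SE 0.19, adjusted p = 0.00203). Nuf2, a subunit of the Ndc80 complex that grips microtubules, was 6.54, 6.43 and 6.48 in Sle1.3/E2-2het mice, 6.91, 6.67 and 7.04 in Sle1.3 mice and 6.01 and 5.77 in WT mice (Sle1.3 minus WT 0.94, SE 0.15, adjusted p = 0.00203). Its partner Ndc80 was 6.16, 6.32 and 6.26 in Sle1.3/E2-2het mice, 6.38, 6.36 and 6.31 in Sle1.3 mice and 6.01 and 6.47 in WT mice, with all groups overlapping (0.11, SE 0.16, adjusted p = 0.635). Spc25, also of that complex, and Cenpf rose by 0.77 (SE 0.15) and 0.79 (SE 0.17) in Sle1.3 against WT.

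Cenpa, the histone H3 variant that defines the centromere, ran against the other genes. It was 8.30, 8.21 and 9.04 in Sle1.3/E2-2het mice, 8.47, 8.52 and 9.04 in Sle1.3 mice and 8.95 and 9.13 in WT mice. The difference from WT was -0.75 in Sle1.3/E2-2het (SE 0.14, adjusted p = 0.00332) and -0.59 in Sle1.3 (SE 0.14, adjusted p = 0.0113). Within the first array set the groups did not overlap, and the second-set arrays stood at the WT level. Cenpa did not pass in Sle1.3 against WT with the array set left out of the fit (adjusted p = 0.424) or with labelled sex in its place (adjusted p = 0.491).

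**Figure D2:**
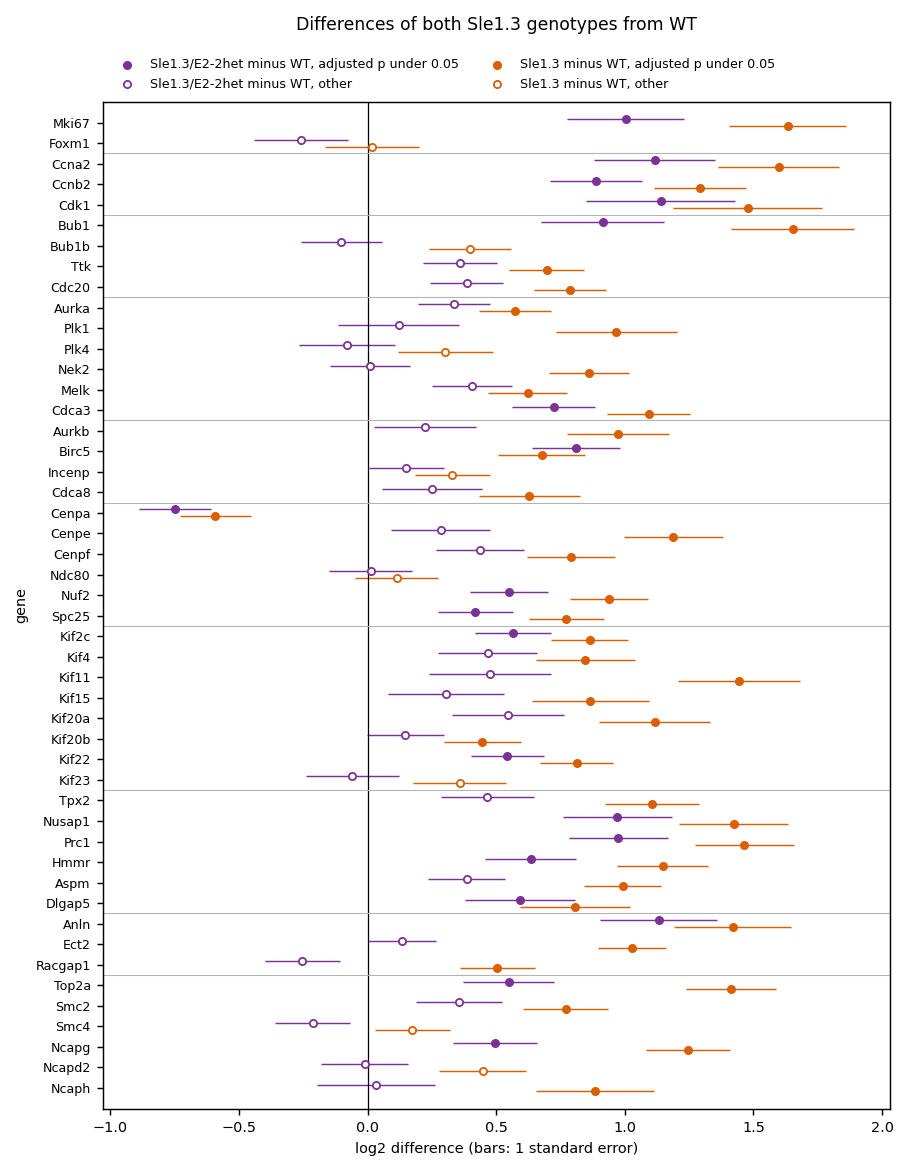
Each point is the fitted log2 difference from WT of 1 of 48 genes, in Sle1.3/E2-2het mice (purple) and in Sle1.3 mice (orange), with bars of 1 standard error and filled points where the limma adjusted p was under 0.05. Both differences share the WT mice. Sle1.3 points lie to the right of the Sle1.3/E2-2het points for 47 genes, Birc5 is the exception, and Cenpa lies left of 0 in both.

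Kinesin motors, which move along spindle microtubules, had 7 of 8 genes higher in Sle1.3 than in WT. Kif11, the motor that pushes spindle poles apart, was 7.82, 7.51 and 7.37 in Sle1.3/E2-2het mice, 8.72, 8.03 and 8.85 in Sle1.3 mice and 6.94 and 7.18 in WT mice (Sle1.3 minus WT 1.44, SE 0.24, 2.72-fold, adjusted p = 0.00219). Kif20a, a motor of the cleavage zone, was 6.53, 5.98 and 6.66 in Sle1.3/E2-2het mice, 7.17, 6.53 and 7.18 in Sle1.3 mice and 5.86 and 5.58 in WT mice (Sle1.3 minus WT 1.12, SE 0.22, adjusted p = 0.00483). For this gene both Sle1.3 genotypes overlapped. Kif23, the motor subunit of centralspindlin, was 7.57, 7.18 and 7.46 in Sle1.3/E2-2het mice, 8.02, 7.52 and 7.92 in Sle1.3 mice and 7.35 and 7.50 in WT mice and did not pass (0.36, SE 0.18, adjusted p = 0.17). Kif2c, Kif4, Kif15, Kif20b and Kif22 rose by 0.45 to 0.87.

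All 6 spindle assembly genes rose in Sle1.3 against WT, with a median difference of 1.13. Prc1, which bundles microtubules of the central spindle, was 6.27, 5.995 and 5.95 in Sle1.3/E2-2het mice, 6.51, 6.29 and 6.88 in Sle1.3 mice and 4.88 and 5.21 in WT mice (Sle1.3 minus WT 1.46, SE 0.19, adjusted p = 0.000888). Nusap1, a microtubule-binding protein at chromosomes, was 8.34, 8.16 and 7.75 in Sle1.3/E2-2het mice, 8.83, 8.16 and 8.61 in Sle1.3 mice and 7.13 and 7.22 in WT mice (Sle1.3 minus WT 1.42, SE 0.21, adjusted p = 0.00139). Both stood clear of WT in every Sle1.3/E2-2het mouse as well, by 0.97 each (SE 0.19 and 0.21, adjusted p = 0.00438 and 0.00667). Dlgap5, a stabiliser of kinetochore fibres, was 6.51, 6.27 and 6.05 in Sle1.3/E2-2het mice, 6.79, 6.10 and 6.58 in Sle1.3 mice and 5.60 and 5.84 in WT mice (Sle1.3 minus WT 0.81, SE 0.21, adjusted p = 0.0187). Tpx2, an activator of Aurora A, Hmmr and Aspm rose by 1.11, 1.15 and 0.99.

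The 3 cytokinesis genes rose in Sle1.3 against WT and then parted in Sle1.3/E2-2het mice. Anln, the actin-binding protein of the cleavage furrow, was 5.85, 5.99 and 5.45 in Sle1.3/E2-2het mice, 6.42, 5.61 and 6.11 in Sle1.3 mice and 4.62 and 4.76 in WT mice. Its difference from WT was 1.13 in Sle1.3/E2-2het (SE 0.23, adjusted p = 0.00473) and 1.42 in Sle1.3 (SE 0.23, adjusted p = 0.00201). Ect2, the exchange factor that switches on RhoA at the furrow, was 7.31, 7.28 and 7.39 in Sle1.3/E2-2het mice, 8.23, 8.10 and 8.33 in Sle1.3 mice and 7.12 and 7.18 in WT mice (Sle1.3 minus WT 1.03, SE 0.13, adjusted p = 0.000859). Its 3 Sle1.3 mice lay close together and above all other mice. Racgap1, the partner of Kif23 in centralspindlin, was 6.17, 6.04 and 6.50 in Sle1.3/E2-2het mice, 6.94, 6.88 and 7.16 in Sle1.3 mice and 6.23 and 6.53 in WT mice (Sle1.3 minus WT 0.50, SE 0.15, adjusted p = 0.0277). Whether Anln differed from Ect2 and Racgap1 in its response was not tested.

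Genes of chromosome structure had 4 of 6 higher in Sle1.3 than in WT. Top2a, the topoisomerase that untangles sister DNA, was 8.28, 8.03 and 8.23 in Sle1.3/E2-2het mice, 9.14, 8.67 and 9.33 in Sle1.3 mice and 7.49 and 7.61 in WT mice, and the 3 groups did not overlap. Sle1.3 exceeded WT by 1.41 (SE 0.18, 2.66-fold, adjusted p = 0.000775), the smallest p of the 48 genes. Ncapg, a condensin subunit, was 6.55, 6.54 and 6.72 in Sle1.3/E2-2het mice, 7.48, 7.05 and 7.54 in Sle1.3 mice and 5.90 and 6.17 in WT mice (Sle1.3 minus WT 1.25, SE 0.16, adjusted p = 0.000888). The condensin core ATPase gene Smc4 was 9.06, 9.03 and 9.58 in Sle1.3/E2-2het mice, 9.34, 9.42 and 10.07 in Sle1.3 mice and 9.08 and 9.39 in WT mice, with overlap and no call (0.17, SE 0.15, adjusted p = 0.404). Its partner Smc2 and the condensin subunit gene Ncaph rose by 0.77 (SE 0.17) and 0.89 (SE 0.23), and Ncapd2 was at 0.45 (SE 0.17, adjusted p = 0.0746).

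In Sle1.3 against WT, 8 genes thus did not pass: Foxm1, Bub1b, Plk4, Incenp, Ndc80, Kif23, Smc4 and Ncapd2. All 48 passed the filter on low values, 6 of them with a WT mean under it, and 33 of the other 42 rose. Every Sle1.3 mouse was above both WT mice for 43 of 48 genes, against 21.5% of genes tested. In the first array set alone 37 rose, where 4.96% of genes did. The count of 39 fell without WT replicate 2, which leaves a lone WT mouse.

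The comparison of Sle1.3/E2-2het with Sle1.3 mice is, by its labels, that of E2-2 haplodeficiency on the lupus background, and it includes the array labelled Sle1.3/E2-2het replicate 3, whose Tcf4 was not low. The genes that fell were Ect2 by 0.89 (SE 0.11, adjusted p = 0.00488), Nek2 by 0.85 (SE 0.13, adjusted p = 0.0157), Racgap1 by 0.76 (SE 0.12, adjusted p = 0.0204), Top2a by 0.86 (SE 0.15, adjusted p = 0.0288), Cenpe by 0.90 (SE 0.16, adjusted p = 0.0339) and Ncapg by 0.75 (SE 0.14, adjusted p = 0.038), all in limma. In each, all 3 Sle1.3/E2-2het mice lay below all 3 Sle1.3 mice, as they did for 20 of the 48 genes, against 4.33% of genes tested. Same-numbered mice of both genotypes deviated from their group means together, a pairing taken from these data and not from the labels. With the replicate number as a block 13 genes fell, where 1.20% of genes did. The other 7 were Mki67, Plk1, Aurkb, Kif11, Kif20a, Aspm and Ncaph, with Plk1 at -0.84 (adjusted p = 0.00549 with the block and 0.094 without it). Without the block, 38 of the 48 had a p under 0.05 before adjustment in limma, each of them lower in Sle1.3/E2-2het mice.

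The lower level was seen in every pair for most genes. In 44 of 48 the Sle1.3/E2-2het mouse was below the Sle1.3 mouse of the same number in all 3 pairs, against 19.3% of genes tested. The exceptions were Birc5, Cenpa, Dlgap5 and Anln. The median difference over the 48 was -0.51 in pair 1, -0.26 in pair 2 and -0.58 in pair 3. Pair 3 holds the second array set, with the Sle1.3/E2-2het array of highest Tcf4, and joins 2 mice with high Xist, while pairs 1 and 2 set a mouse with low Xist against one with high Xist. How far these counts rest on single mice was uneven. The count of 6 was 1 in the first array set alone (Ect2, adjusted p = 0.0263), where 0.428% of genes fell. Among the Sle1.3/E2-2het mice, it was 1 with replicate 2 or replicate 3 left out (19 and 65 of all genes lower) and 9 with replicate 1 left out (80 of all genes). Among the Sle1.3 mice, it was 1 with replicate 1 or replicate 3 left out (17 and 58 of all genes) and 18 with replicate 2 left out (116 of all genes). The planned fit had 69 of all genes lower. The count of 6 also fell with either WT mouse left out, which leaves a lone WT mouse.

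**Figure D3:**
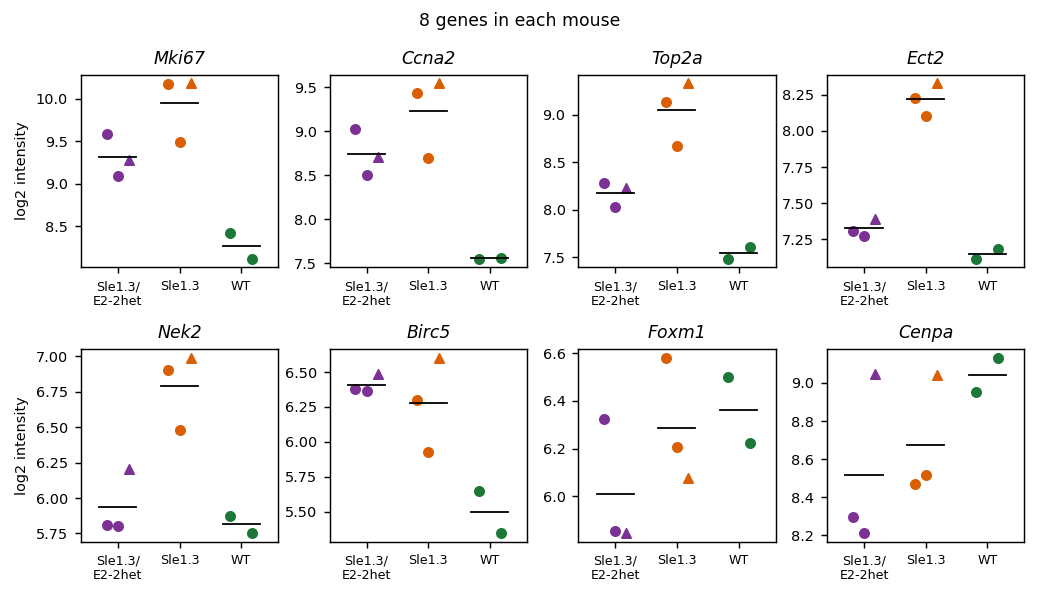
Log2 intensity of 8 genes in each mouse, with a line at each group's mean and triangles for the second array set. Top2a is highest in Sle1.3 mice with Sle1.3/E2-2het mice between them and WT, Nek2 and Ect2 are high in Sle1.3 mice, Birc5 is high in both Sle1.3 genotypes, Foxm1 overlaps in all groups, and Cenpa is low in first-set arrays of both Sle1.3 genotypes.

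Against WT, 18 genes stayed higher in Sle1.3/E2-2het spleens, all among the 39 that rose in Sle1.3. The smallest p values belonged to Prc1, Anln, Ccnb2 and Birc5 among the higher genes, with Ccnb2 at 0.89 (SE 0.18, adjusted p = 0.00485), and to Cenpa. Mki67 exceeded WT by 1.00 (SE 0.23, adjusted p = 0.00765). Of the genes without a call, Nek2 was at 0.01 (SE 0.16), Ncaph at 0.03 (SE 0.23) and Plk1 at 0.12 (SE 0.24). The 18 became 11 without Sle1.3/E2-2het replicate 1, where 938 of all genes were higher. With the array set left out of the fit they became 7, where 517 of all genes were higher. The planned fit had 1599 of all genes higher. The count of 18 also fell with either WT mouse left out, which leaves a lone WT mouse.

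Mice of 1 genotype differed among themselves in the same genes. Sle1.3 replicate 1 exceeded Sle1.3 replicate 2 in 45 of 48 genes, against 48.7% of all genes tested. The median was 0.41, against -0.01 over all genes tested. Sle1.3/E2-2het replicate 1 exceeded Sle1.3/E2-2het replicate 2 in 41 of 48, against 54.2% of all genes. The median was 0.15, against 0.03 over all genes. Between WT replicate 1 and WT replicate 2, 19 of 48 were higher in replicate 1, against 48.1% of all genes, with a median of -0.09. Among the 6 first-set arrays, Sle1.3 replicate 1 held the highest value for 43 of the 48 genes, against 11.3% of all genes tested.

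Other mitosis genes and DNA replication genes rose in Sle1.3 against WT less often than the set itself (39 of 48). The set was listed with earlier results of these data known, so its share was not tested against theirs. Over all genes tested 7.46% rose. Of 48 further tested mitosis genes 21 rose in Sle1.3 against WT and none fell (before adjustment limma had 28 higher and 2 lower with p under 0.05), with a median of 0.48. They included Cep55, an abscission protein (1.02, SE 0.14, adjusted p = 0.00113), Shcbp1 (1.06, SE 0.15), the checkpoint protein gene Mad2l1 (1.04, SE 0.16) and Ska2, of a kinetochore complex (1.01, SE 0.16). Cep55 also fell in Sle1.3/E2-2het against Sle1.3, by 0.94 (SE 0.12, adjusted p = 0.00501), the only one of these 48 to do so without the replicate block, against 4 with it. Of 32 tested DNA replication genes 15 rose and 1 fell in Sle1.3 against WT, with a median of 0.41. Rrm2 and Tyms, which make DNA precursors, rose by 1.35 (SE 0.20) and 1.15 (SE 0.16), Cdc6, a licensing factor, by 0.84 (SE 0.14) and Gins1, of the replicative helicase, by 0.74 (SE 0.14). The gene that fell was the licensing factor gene Cdt1 (-0.85, adjusted p = 0.0112), named after its value was seen. In Sle1.3/E2-2het against Sle1.3 no replication gene passed (before adjustment limma had 13 with p under 0.05, each lower, median -0.23, and 1 was lower after adjustment with the replicate block), and Rrm2 and Tyms were at -0.16 (SE 0.17) and -0.19 (SE 0.13) there.

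In Sle1.3 against WT, calls among the upstream regulators were near the share of all genes in the first list and absent in the second. Of 18 genes of the DREAM complex, the Rb family and E2F, 4 fell, where 16.5% of all genes did. None rose, where 7.46% of all genes did (before adjustment limma had 3 higher and 5 lower with p under 0.05). Lin54, the subunit that reads TTTGAA, fell by 0.79 (SE 0.16, adjusted p = 0.00554), the repressive E2F gene E2f4 by 0.49 (SE 0.15, adjusted p = 0.0364), E2f5 by 0.63 (SE 0.19) and the MuvB subunit gene Lin52 by 0.44 (SE 0.15). Of the 18, 1 was lower in the first array set alone and 0 with labelled sex in the fit. With the replicate block 2 of the 18 were higher and 4 lower. A link of Lin54, E2f4, E2f5 or Lin52 to the mitotic set was not tested. Of 12 G1 cyclins, kinases and inhibitors, 0 passed in limma, and before adjustment 1 had p under 0.05, lower in Sle1.3. The smallest p were those of Ccnd2 (-0.40, SE 0.15, adjusted p = 0.0737) and Cdk4 (0.31, SE 0.17, adjusted p = 0.21).

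**Figure D4:**
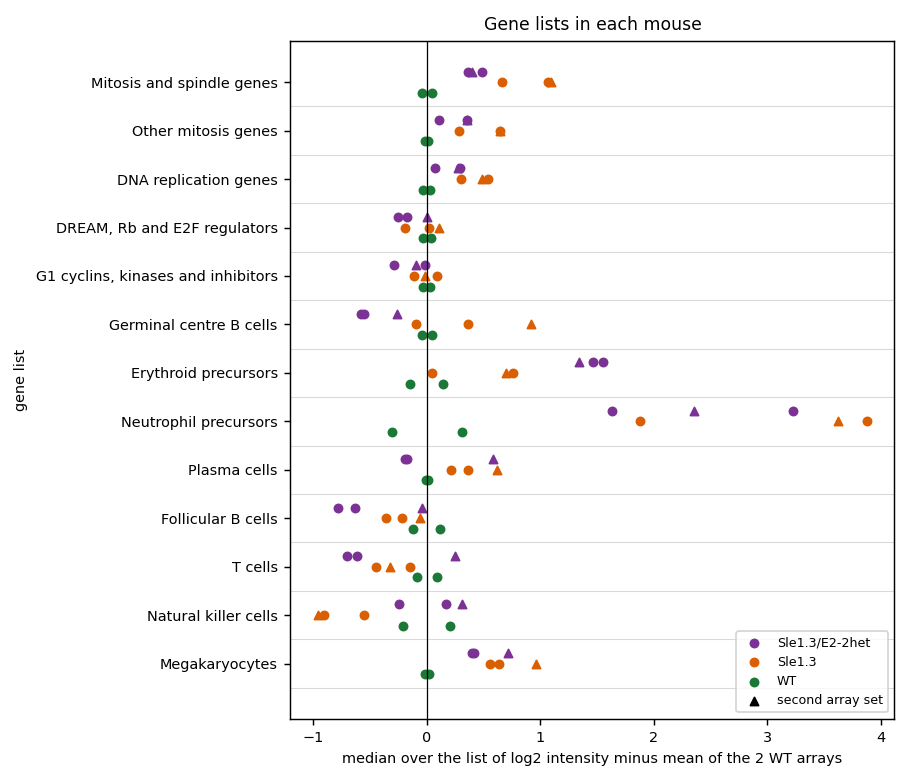
For each gene list, a point gives 1 mouse: the median over the list of log2 intensity minus the mean of both WT arrays, by genotype, with triangles for the second array set. Mitosis and spindle genes are highest in Sle1.3 mice, erythroid genes in Sle1.3/E2-2het mice, and neutrophil precursor genes are raised in both.

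Some markers of cells that could be dividing moved with these genes in some comparisons, and others did not. The part of such cells in the result was not tested. Of 13 tested neutrophil precursor genes 12 rose in Sle1.3 against WT, where 7.46% of all genes did. Elane was at 3.32 (SE 0.47) and Camp at 3.63 (SE 0.55). The summed level of the 13 was 12.61 to 14.29 in Sle1.3/E2-2het mice, 12.80 to 14.48 in Sle1.3 mice and 10.39 to 11.25 in WT mice. Within each Sle1.3 genotype it was lowest in replicate 2. None of the 13 passed in Sle1.3/E2-2het against Sle1.3 (before adjustment limma had 4 with p under 0.05, each lower), and 3 were lower with the replicate block.

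Germinal centre B cell markers went the same way as the mitotic genes in the comparison of Sle1.3/E2-2het with Sle1.3. In Sle1.3 against WT they were mixed, with 5 positive and 4 negative differences among the 9 tested and a median of 0.20. Of these 9, 3 rose, where 7.46% of all genes did. Before adjustment limma had 4 higher and 1 lower with p under 0.05. Gcsam was at 1.65 (SE 0.21) and Nuggc at 0.81 (SE 0.13). In Sle1.3/E2-2het against Sle1.3 4 fell, where 0.461% of all genes did. Gcsam was at -1.65 (SE 0.18, limma adjusted p = 0.00279) and Nuggc at -0.62 (SE 0.11, adjusted p = 0.0371). Named after their values were seen, Mybl1 was at -2.02 and Rgs13 at -1.58. The summed level of the 9 was 9.82 to 10.19 in Sle1.3/E2-2het mice, 10.50 to 11.04 in Sle1.3 mice and 10.46 to 10.51 in WT mice. In Sle1.3/E2-2het against WT, 5 of the 9 were lower and none higher (median -0.71). Over all genes 23.4% were lower and 10.7% higher there, and 18 of the mitotic genes were higher. Of 10 plasma cell genes 1 rose in Sle1.3 against WT, a share near the 7.46% of all genes that did, and the same gene fell in Sle1.3/E2-2het against Sle1.3, Mzb1 (0.94, SE 0.17, and -0.90, SE 0.15, adjusted p = 0.0214).

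Erythroid precursor markers went the opposite way to the mitotic genes in Sle1.3/E2-2het against Sle1.3 mice. Of 10 tested, 3 rose in Sle1.3 against WT (7.46% of all genes), among them Ermap (0.95, SE 0.20) and Gata1 (0.64, SE 0.15). In Sle1.3/E2-2het against WT 8 rose, where 10.7% of all genes did. Against Sle1.3, 2 rose in Sle1.3/E2-2het, where 0.154% of all genes did. They were Alas2 (2.34, limma adjusted p = 0.0293) and Slc4a1 (2.25, adjusted p = 0.0157), named after their values were seen. The summed level of the 10 was 10.73 to 11.58 in Sle1.3/E2-2het mice, 9.52 to 10.10 in Sle1.3 mice and 9.56 to 9.65 in WT mice. It was thus highest in the mice with the intermediate mitotic level.

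Lists of other cells showed the following. In Sle1.3 against WT 7.46% of all genes rose and 16.5% fell. Megakaryocyte genes had 4 of 6 higher and 1 lower there, with Ppbp at 1.65 (SE 0.23) and Gp9 at 0.80 (SE 0.16). Ppbp fell by 1.01 in Sle1.3/E2-2het against Sle1.3 (limma adjusted p = 0.0477). Natural killer cell genes had 4 of 9 lower in Sle1.3 than in WT, with Eomes at -1.02 (SE 0.15) and Il2rb at -1.23 (SE 0.19). Follicular B cell and T cell genes each had 3 of 9 lower, with Fcer2a at -1.08 (SE 0.19), Cd37 at -0.86 (SE 0.18), Thy1 at -0.99 (SE 0.16) and Lef1 at -0.99 (SE 0.26). In Sle1.3/E2-2het against Sle1.3 none of these natural killer, B or T cell genes passed in limma without the replicate block. All 9 natural killer genes had a positive difference there (median 0.63), opposite in sign to their median of -0.80 in Sle1.3 against WT, with 6 at p under 0.05 before adjustment and 5 higher with the block. Before adjustment 4 T cell genes were higher and 2 lower with p under 0.05, and 1 follicular B cell gene was lower. With the block 1 T cell gene was lower.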

How the data were processed

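Splenocyte RNA of 8 mice was measured on 8 arrays. The authors deposited an intensity on a linear scale for each of 35556 probe sets, for which the submitters' processing notes name RMA and the Affymetrix Expression Console, with versions and roles not given in the sources used here. The deposited table held no detection calls, and only 8 arrays limit the precision. Here log2 was taken with no pseudocount. Of the probe sets, 21789 had 1 gene symbol, 1621 several and 12146 none, and only the first kind entered. Genes with a mean log2 above the 25th percentile (5.01) were tested.

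Differences were fitted with two-sided limma tests (lmFit and eBayes, version 3.58.1, under R 4.3.3) to all 8 arrays with genotype and array set, with 4 residual degrees of freedom, and p values were adjusted by Benjamini and Hochberg over 14953 genes. The fit was tested on simulated data. Labelled sex, used in an earlier analysis, became an alternative because 1 label did not match its array. Nothing in the labels says more of the replicates than that they are separate mice. Mice of the same number in both Sle1.3 genotypes are treated as pairs because their deviations from the group means correlated over genes (0.573, 0.369 and 0.618). The pairing comes from the data and not the labels, and the third pair is the second array set. These deviations include the shift between array sets. Within the first array set, replicate 1 minus replicate 2 correlated at 0.358 between both Sle1.3 genotypes. That correlation was 0.202 between Sle1.3/E2-2het and WT and 0.096 between Sle1.3 and WT. The replicate block also grouped the WT mice by number.

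The genes, lists and tests were chosen with earlier results of these data known, so lists are described by counts and medians and not tested. Genes named with every array value are, by role, both with the largest and the 1 with the smallest absolute Sle1.3 minus WT difference, the 5 with the smallest p in each other comparison, and any called against the rest. Of other lists, up to 4 called genes or the 2 with the smallest p are named. In all 19 alternatives were run. Sequences are RefSeq's (GRCm38.p6), and protein sequences were not used here. Python 3.11.15, pandas 2.3.3, numpy 2.4.6 and matplotlib 3.10.9 served for tables and figures.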

Additional observations from a re-analysis of the deposited data

How the results depend on the processing

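The median difference of the 48 genes kept its direction in all 3 comparisons under all 19 alternatives, within the spread between mice, and no named gene that was called turned its direction. Counts moved more. With group alone in the fit, 0 genes of the set were lower in Sle1.3/E2-2het against Sle1.3 (23 at an unadjusted p under 0.05 in limma) and 7 higher in Sle1.3/E2-2het against WT, and calls over all genes were 879 in Sle1.3 against WT, 2 in Sle1.3/E2-2het against Sle1.3 and 1076 in Sle1.3/E2-2het against WT, where the planned fit had 3585, 92 and 5092. With labelled sex the set had 12, 0 and 3 calls in that order and all genes 199, 0 (before adjustment limma had 162 higher and 230 lower with p under 0.05) and 492. The first array set alone gave 1 in the set for Sle1.3/E2-2het against Sle1.3 and 2331 over all genes for Sle1.3 against WT. The replicate block gave 13 in the set and 262 over all genes for Sle1.3/E2-2het against Sle1.3 and moved the counts of the set and of all genes in the other comparisons by under 1.5 times. Quantile normalization gave 2245 calls over all genes in Sle1.3 against WT (945 higher and 1300 lower, where the planned fit had 1115 and 2470) and 2792 in Sle1.3/E2-2het against WT, and within each array set 2258 (959 and 1299) and 2818. Median centring left 1123 higher and 4429 lower in Sle1.3/E2-2het against WT, where the planned fit had 1599 and 3493. Leaving out 1 mouse at a time gave 26 to 40 genes of the set in Sle1.3 against WT, 1 to 18 in Sle1.3/E2-2het against Sle1.3 and 4 to 25 in Sle1.3/E2-2het against WT. Over all genes it gave 1129 to 3639, 27 to 166 and 1661 to 5216. A lone WT mouse is assumed to vary like the other groups. The cause of these moves was not tested, beyond the fewer mice in each. Low genes of the set, near 5 on the log2 scale, have no detection call beside them.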
